A study of Mus musculus with 20 samples.

Results

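Monocytes were defined here by a fixed gate on unique molecular identifier (UMI) counts, the counts of distinct captured RNA molecules, and made up 1336 of 97181 cells (1.37%) in 20 libraries of spleen and lymph node (LN). The gate asked for at least 1500 UMIs, at least 200 detected genes and at most 10% mitochondrial UMIs per barcode. It then asked for at least 5 UMIs of Lyz2 (lysozyme, the abundant antibacterial enzyme of myeloid cells) and at least 1 UMI of Csf1r (the receptor for the growth factor that maintains monocytes and macrophages). Macrophages were kept out by fewer than 3 UMIs of C1qa, C1qb and C1qc together, neutrophils by fewer than 20 of S100a8 and S100a9 together, early myeloid progenitors by fewer than 5 of Mpo, T cells by 0 UMIs of Cd3d, Cd3e and Cd3g, and B cells by at most 1 of Cd79a and Cd79b. Members were divided by Ly6c2, which encodes the surface antigen by which mouse monocytes are sorted, into 1150 Ly6c2-positive cells with at least 1 UMI and 186 Ly6c2-zero cells with none. These counts chose the members, so levels of the gate genes are given below as a description only.

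The libraries came from 13 mice in 3 transgenic groups, 7 of which gave both tissues. The labels give the strain as C57BL/6N, whereas the study's methods name C57BL/6J for the Eµ-TCL1 parents. Eµ-PRMT5 mice (5 spleens) carried human PRMT5, an arginine methyltransferase, behind a VH promoter and the Igh-µ enhancer, which drive it in B cells. Eµ-TCL1 mice (4 spleens, 3 LN) carried human TCL1 and develop a leukemia resembling chronic lymphocytic leukemia (CLL), and Eµ-PRMT5/TCL1 mice (4 spleens, 4 LN) carried both transgenes. Neither transgene was directed to monocytes. Unselected live cells were loaded, animals were taken when they met early removal criteria, and their ages were not stated. LN were sub-mandibular. Eµ-PRMT5 spleen 3 bears the name of a founder animal in its label, and the label of the mouse that gave Eµ-PRMT5/TCL1 LN 2 and spleen 1 bears a mark, RT, that the labels do not explain. Sex was not given in the labels. Xist, the RNA of the inactive X chromosome of females, was counted over all barcodes of a library, before the filters for cells. It was at 120 to 321.6 CPM in 4 of 5 Eµ-PRMT5, 1 of 4 Eµ-TCL1 (237 CPM) and 3 of 4 Eµ-PRMT5/TCL1 spleens (273 to 368 CPM). The other spleens were at 1.32 to 2.16 CPM, so Xist was unevenly spread over the groups. No mice without a transgene were analysed here, so each contrast is between transgenic groups.

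Monocytes leave the bone marrow as classical Ly6C-high cells that use the chemokine receptor CCR2 to enter inflamed tissue, and some convert into non-classical Ly6C-low cells, which depend on the nuclear receptor NR4A1, display CX3CR1 and patrol the vessel wall. In CLL, cells of this lineage are known as nurse-like partners of the leukemic B cells. The spleen also holds a reservoir of monocytes and, under stress, makes new ones from progenitors.

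Most members carried monocyte markers, with a fraction that also carried transcripts of myeloid progenitors. With every cell thinned to 1500 UMIs, so that depth was equal, Ccr2 was detected in 44.9% of members and in 0.429% of 8851 B cells, which served as the background from free RNA, and Ly6c2 was detected in 71.9% and 1.18%. B cells with a Lyz2 UMI had been left out, which can lower this background for myeloid genes by construction. Of genes the gate did not use, the classical monocyte genes Chil3 (a chitinase-like protein) in 53.9%, Fn1 (fibronectin) in 38.6%, F13a1 (a coagulation factor subunit) in 37.1% and Vcan (the proteoglycan versican) in 32.5% were each at or under 0.102% in B cells. Ly6g, which defines neutrophils, and Siglech, which defines plasmacytoid dendritic cells, were detected in 1 member each, and Cd209a, of monocyte-derived dendritic cells, in 6. Other neutrophil transcripts were more frequent. In unthinned counts 270 members (20.2%) carried 5 to 19 UMIs of S100a8 and S100a9 together, among them 42 of the 83 members of Eµ-PRMT5 spleen 4. Elane, the neutrophil elastase made by granulocyte-monocyte progenitors, was detected in 122 members (9.13%) against 0.0791% of B cells. Members without any UMI of Mpo, Elane, Ctsg, Ms4a3, Cd34 or Kit numbered 865, and results are given with and without the remainder where this changed them. These UMIs were counted without thinning, so a cell with more UMIs was more likely to be left out. The step kept 53 of 161 members in Eµ-TCL1 spleen 1 (median 14978 UMIs), 123 of 135 in Eµ-PRMT5 spleen 1 (12123) and 24 of 25 in Eµ-TCL1 spleen 2 (3820). The part of depth and of fewer members in the results without the remainder was not tested.

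The 20 libraries held 9348094 to 72440894 UMIs, and members in the 17 libraries with at least 10 of them had a median of 3820 (Eµ-TCL1 spleen 2) to 15398 UMIs (Eµ-PRMT5/TCL1 spleen 3). The B cells of the background had library medians of 4114.5 to 16055 UMIs. Of 91354 distinct cell barcodes 5623 occurred in 2 or more libraries, and 156 members had a barcode that was also a cell elsewhere. At the borders of the gate, 20 members had exactly 5 Lyz2 UMIs and 8 cells had 4, 45 members had 15 to 19 UMIs of S100a8 and S100a9 and 26 cells had 20 to 24, and 34 members had 2 C1q UMIs against 20 cells with 3. A further 119 members carried 1 UMI of Cd79a or Cd79b. Scrublet marked 21 members as likely doublets. Among markers of other lineages in the summed members of each library, T cell genes were at 0 to 65.0 CPM (counts scaled to a common library total) over 9 genes, B cell genes at 14.7 to 270.2 CPM over 10 and erythroid genes at 0 to 61.8 CPM. The levels reached further for neutrophil genes (65.4 to 788 CPM, the highest in Eµ-TCL1 LN 3), macrophage genes (84.2 to 1378 CPM), plasma cell genes (196 to 507 CPM) and progenitor genes (37.9 to 2810 CPM, the highest in Eµ-PRMT5 spleen 4).

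The monocyte share was lower in LN than in spleen of the same animal in 7 of 7 mice, and it overlapped between all genotypes. In Eµ-PRMT5 spleens 1 to 5 monocytes made up 2.91% (95% Wilson interval 2.46 to 3.43), 2.76% (1.92 to 3.96), 0.637% (0.454 to 0.893), 1.80% (1.46 to 2.23) and 0.418% (0.283 to 0.617) of cells. In Eµ-TCL1 spleens 1 to 4 they made up 2.54% (2.18 to 2.95), 0.362% (0.245 to 0.534), 1.36% (1.08 to 1.72) and 2.11% (1.77 to 2.52). Eµ-PRMT5/TCL1 spleens 1 to 4 held 0.335% (0.217 to 0.517), 8.60% (7.74 to 9.54), 1.68% (1.35 to 2.09) and 2.37% (2.00 to 2.81), so spleen 2 of that group stood apart from every other library. Intervals cover counting error only. The spread between animals of a genotype was thus wider than the intervals of single libraries.

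The spleen groups overlapped, and no difference between them passed the test. The mean share was 1.70% ± 1.16 (SD, n = 5) in Eµ-PRMT5, 1.59% ± 0.954 (n = 4) in Eµ-TCL1 and 3.25% ± 3.67 (n = 4) in Eµ-PRMT5/TCL1 spleens. Exact two-sided permutation tests gave p = 0.873 for Eµ-PRMT5 against Eµ-TCL1, p = 0.571 for Eµ-PRMT5/TCL1 against Eµ-TCL1 and p = 0.524 for Eµ-PRMT5/TCL1 against Eµ-PRMT5 (0.970, 0.816 and 0.816 after Benjamini-Hochberg adjustment over the 10 share tests). These 3 contrasts share their spleens pairwise. B cells made up 6.87% to 82.0% of spleen cells. With monocytes taken as a share of cells with at most 1 UMI of Cd79a and Cd79b, the double transgenic mean was 3.15 percentage points above Eµ-TCL1 (exact permutation p = 0.2) and 3.95 points above Eµ-PRMT5 (exact permutation p = 0.0873, adjusted 0.291), beside 1.65 and 1.54 points over all cells. Without Eµ-PRMT5/TCL1 spleen 2 the double transgenic mean was 0.129 percentage points under Eµ-TCL1 (difference -0.129) and 0.241 under Eµ-PRMT5 (difference -0.241).

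In LN, monocytes were 0.0243% (0.00430 to 0.138), 0.179% (0.0822 to 0.391) and 0.874% (0.647 to 1.18) of cells in Eµ-TCL1 LN 1 to 3. In Eµ-PRMT5/TCL1 LN 1 to 4 they were 0.510% (0.199 to 1.3), 0.213% (0.116 to 0.392), 0.601% (0.430 to 0.838) and 0.162% (0.0967 to 0.272). The groups overlapped, with a difference of 0.0125 percentage points (exact permutation p = 0.971, adjusted 0.971). Over the 7 mice with both tissues the mean share was 0.366% ± 0.303 in LN and 2.57% ± 2.81 in spleen, a difference of -2.21 percentage points. The exact sign-flip permutation test gave p = 0.0156, the smallest that 7 pairs allow, and 0.156 after adjustment over the 10 share tests. T cells made up 12.2% to 72.2% of LN cells and 2.93% to 34.7% of the cells of these 7 spleens, and the part of this in the share of monocytes was not tested.

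**Figure D1:**
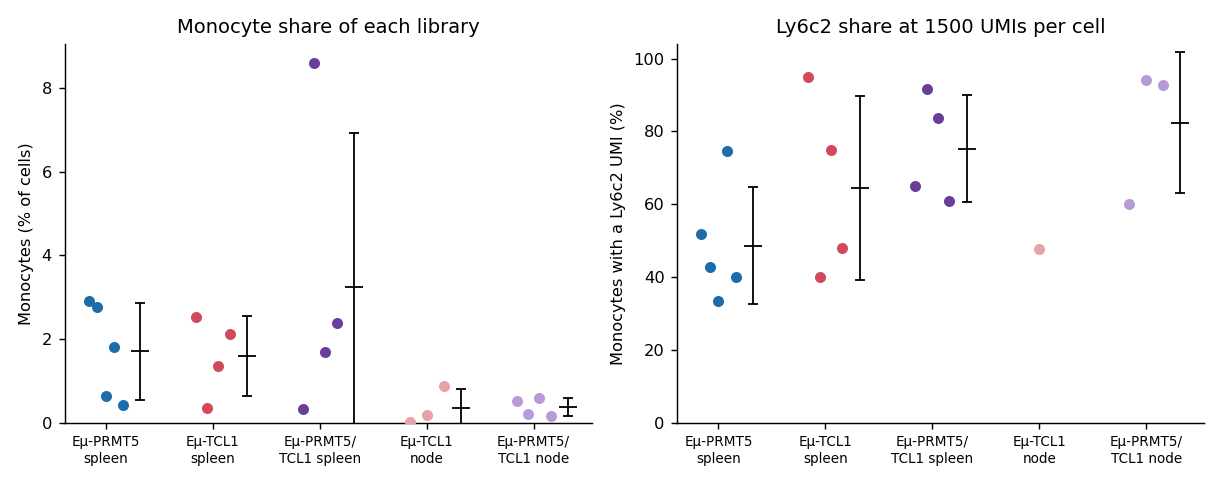
Monocytes as a percentage of the cells of each library (left) and members with a Ly6c2 UMI after thinning each to 1500 UMIs, as a percentage of members (right, libraries with at least 10 members), by genotype and tissue. Points are libraries and bars are the mean ± SD, ending at 0 where the mean less the SD is lower. Eµ-PRMT5/TCL1 spleen 2 lies at 8.60% on the left, and on the right 4 of 5 Eµ-PRMT5 spleens lie under all Eµ-PRMT5/TCL1 spleens.

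The Ly6c2-positive part of the monocytes varied between animals of each genotype. At 1500 UMIs per cell, Eµ-PRMT5 spleens 1 to 5 had a Ly6c2 UMI in 51.9% (43.5 to 60.1), 42.9% (26.5 to 60.9), 33.3% (19.8 to 50.4), 74.7% (64.4 to 82.8) and 40.0% (23.4 to 59.3) of members. Eµ-TCL1 spleens 1 to 4 had 95.0% (90.5 to 97.5), 40.0% (23.4 to 59.3), 75.0% (63.6 to 83.8) and 47.9% (39.2 to 56.8). Eµ-PRMT5/TCL1 spleens 1 to 4 had 65.0% (43.3 to 81.9), 91.5% (88.0 to 94.1), 83.5% (73.9 to 90.1) and 60.9% (52.3 to 69.0). Every Eµ-PRMT5/TCL1 spleen thus lay above 4 of the 5 Eµ-PRMT5 spleens, and the exception was Eµ-PRMT5 spleen 4.

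The group means were 48.5% ± 16.1 in Eµ-PRMT5, 64.5% ± 25.3 in Eµ-TCL1 and 75.3% ± 14.7 in Eµ-PRMT5/TCL1 spleens. The difference of 26.7 percentage points between Eµ-PRMT5/TCL1 and Eµ-PRMT5 gave an exact permutation p = 0.0556 (adjusted 0.278), where 0.00794 is the smallest p that 4 against 5 allows. Among members without progenitor transcripts it was 27.3 points (exact permutation p = 0.00794, 0.0781 when set in the same family of 10), and in unthinned counts 17 points (exact permutation p = 0.103). Eµ-PRMT5 spleen 4, in which 51.8% of members had an Elane UMI in unthinned counts, moved the difference to 33.2 points when left out (exact permutation p = 0.0286, adjusted 0.143). Eµ-PRMT5 and Eµ-TCL1 spleens differed by -15.9 points (exact permutation p = 0.262) and Eµ-PRMT5/TCL1 and Eµ-TCL1 spleens by 10.8 points (p = 0.486), and both pairs of groups overlapped.

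In LN with at least 10 members the share was 47.6% (33.4 to 62.3) in Eµ-TCL1 LN 3 and 60% (31.3 to 83.2), 94.1% (80.9 to 98.4) and 92.9% (68.5 to 98.7) in Eµ-PRMT5/TCL1 LN 2 to 4. With 1 Eµ-TCL1 library the exact permutation test could not go below its p of 0.25. In the 4 mice with at least 10 members in both tissues LN and spleen differed by 1.64 points (exact sign-flip permutation p = 0.75, smallest possible 0.125), higher in 2 of 4. A Ly6c2 UMI was present in 70% to 97.1% of LN members and 48.0% to 99.4% of spleen members before thinning.

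Marker genes of non-classical monocytes were detected more often in Ly6c2-zero members, unevenly over libraries. At 1500 UMIs, Cx3cr1 (the fractalkine receptor) was detected in 31.7% of Ly6c2-zero and 7.91% of Ly6c2-positive members, Ace (angiotensin-converting enzyme) in 28.0% and 1.65%, Treml4 (a receptor for dying cells) in 26.3% and 3.65%, and Ear2 (an eosinophil-type ribonuclease) in 8.60% and 1.57%. All 4 were at or under 0.0339% in B cells. Over the 8 libraries with at least 10 members in both subsets, Treml4 was detected in 0% (Eµ-TCL1 LN 3) to 60% (Eµ-PRMT5 spleen 2) of Ly6c2-zero members and Ace in 0% (Eµ-TCL1 LN 3 and Eµ-PRMT5 spleen 4) to 64.7% (Eµ-PRMT5/TCL1 spleen 4). The pooled values of both leaned on Eµ-PRMT5/TCL1 spleen 4, with Treml4 in 58.8% of its 34 Ly6c2-zero members. Nr4a1, which the non-classical lineage requires, was detected in 41.4% and 12.6%, but also in 20.2% of B cells. In the other direction, F13a1 was detected in 41.3% of Ly6c2-positive and 11.3% of Ly6c2-zero members, Chil3 in 57.0% and 34.4%, and Ccr2 in 47.2% and 30.6%. Mki67 (a marker of cycling cells) and Elane were detected in 11.7% and 10.6% of Ly6c2-positive members and in 0 of 186 Ly6c2-zero members, which allows a share of cells with a UMI at this depth of up to 1.61% by counting error alone and sets no limit on the share that expressed them. Cells of 1 library share their source, and these percentages, pooled over libraries that differ in their mix of the subsets, carry no test.

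**Figure D2:**
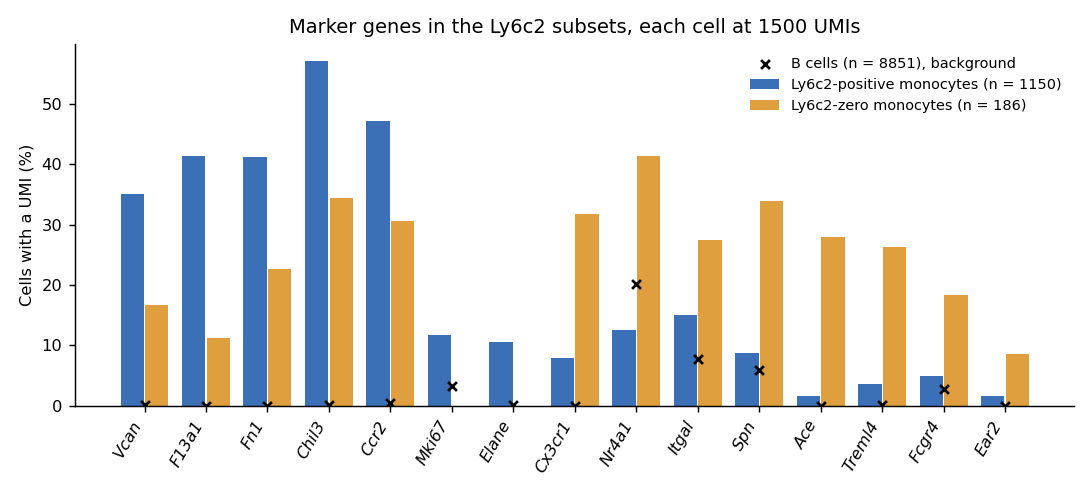
Percentage of cells with at least 1 UMI of each gene after thinning to 1500 UMIs, in Ly6c2-positive and Ly6c2-zero monocytes, with crosses for B cells as background. Vcan, F13a1, Fn1, Chil3, Ccr2, Mki67 and Elane were detected more often in the Ly6c2-positive subset, and Cx3cr1, Nr4a1, Itgal, Spn, Ace, Treml4, Fcgr4 and Ear2 more often in the Ly6c2-zero subset.

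Across the 8 libraries with at least 10 members in both subsets, summed counts of the subsets were compared with library as a block. Of 2893 genes tested, 210 passed an adjusted p below 0.05 in edgeR's quasi-likelihood test (percent called 7.26), 76 higher (2.63) and 134 lower (4.63) in Ly6c2-positive cells. DESeq2 called 298, and 162 of the 210 were among them. Of all genes tested 205 (7.09%) lay on 1 side in all 8 libraries, 120 of them called. The leading genes named below were picked from these, so their agreement over libraries followed from the choice. Ly6c2-positive cells had more UMIs than Ly6c2-zero cells in 8 of 8 libraries (medians 6319 to 12761 against 2398 to 8930), and a cell with more UMIs is more likely to show 1 of Ly6c2. Thinned to 1500 UMIs and split again, the subsets differed in 71 of 488 genes over 12 libraries (percent called 14.5, 5.33 higher and 9.22 lower), of which 31 were among the 210. With members free of progenitor transcripts 59 of 2135 genes were called (2.76, 0.89 higher and 1.87 lower), of which 54 were among the 210.

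The genes higher in Ly6c2-positive monocytes included Prtn3 and Anxa1. Prtn3 (proteinase 3, a granule protease of myeloid precursors) ranged from 96.6 CPM in the lowest library over a median of 283 to 2442 CPM in the highest in the Ly6c2-positive subsets and from 0 over 30.6 to 97.2 CPM in the Ly6c2-zero subsets, and it was higher in 8 of 8 libraries (log2 fold change 3.15 ± 0.31, adjusted p = 4.19e-06). The lowest positive subset lay just under the highest zero subset. Here and below, ± after a log2 fold change is an approximate standard error from the quasi-likelihood test, and ± after CPM is the SD over libraries. Anxa1 (annexin A1, an inhibitor of neutrophil recruitment) ranged from 332 over 873 to 1506 CPM against 33.5 over 352 to 694 CPM (1.24 ± 0.20, adjusted p = 0.00101). It was higher in every library pair and was called again in thinned counts (0.66, adjusted p = 0.00526). The remaining leading genes were Rpn2, Mgst1, Gyg, Hmgb2, Kpna2 and Emb, at log2 fold changes of 0.85 (Emb, a cell adhesion glycoprotein) to 1.69 (Hmgb2, a chromatin protein abundant in dividing cells). In members without progenitor transcripts Anxa1, Rpn2, Mgst1, Gyg and Emb were called, Hmgb2 was not (adjusted p = 0.178), and Prtn3 and Kpna2 did not pass the filter on low counts.

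The genes lower in Ly6c2-positive, and so higher in Ly6c2-zero, monocytes included Tgm2, Bhlhe40 and Pltp. Tgm2 (transglutaminase 2, a protein cross-linking enzyme) ranged from 15.6 over 28.7 to 103 CPM in the Ly6c2-positive subsets and from 50 over 176 to 739 CPM in the Ly6c2-zero subsets, lower in the positive subset of 8 of 8 libraries (-2.61 ± 0.25, adjusted p = 1.13e-06). Bhlhe40 (a transcription factor that restrains IL-10) ranged from 38.1 over 67.1 to 384 CPM against 145 over 310.4 to 1598 CPM (-2.0 ± 0.19, adjusted p = 1.15e-06). Pltp (phospholipid transfer protein) ranged from 22.7 over 39.2 to 80.5 CPM against 50 over 357 to 1176 CPM (-3.01 ± 0.34, adjusted p = 0.00033). All 3 were on 1 side in every library, although their ranges over libraries overlapped. Havcr2 (the checkpoint receptor TIM-3) was at -1.49, F11r (a junctional adhesion molecule) at -1.65, Abi3 at -1.73, Gngt2 (a G protein gamma subunit) at -1.70, Nfic at -1.31, Neurl3 at -1.32 and Pou2f2 (the octamer-binding factor OCT2) at -1.10. Gngt2 was called in thinned counts as well (-1.47, adjusted p = 0.00024), the other leading genes of this direction did not pass its filter, and apart from Tgm2, which was not tested, and Pou2f2 (adjusted p = 0.0827) they were called among members without progenitor transcripts.

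**Figure D3:**
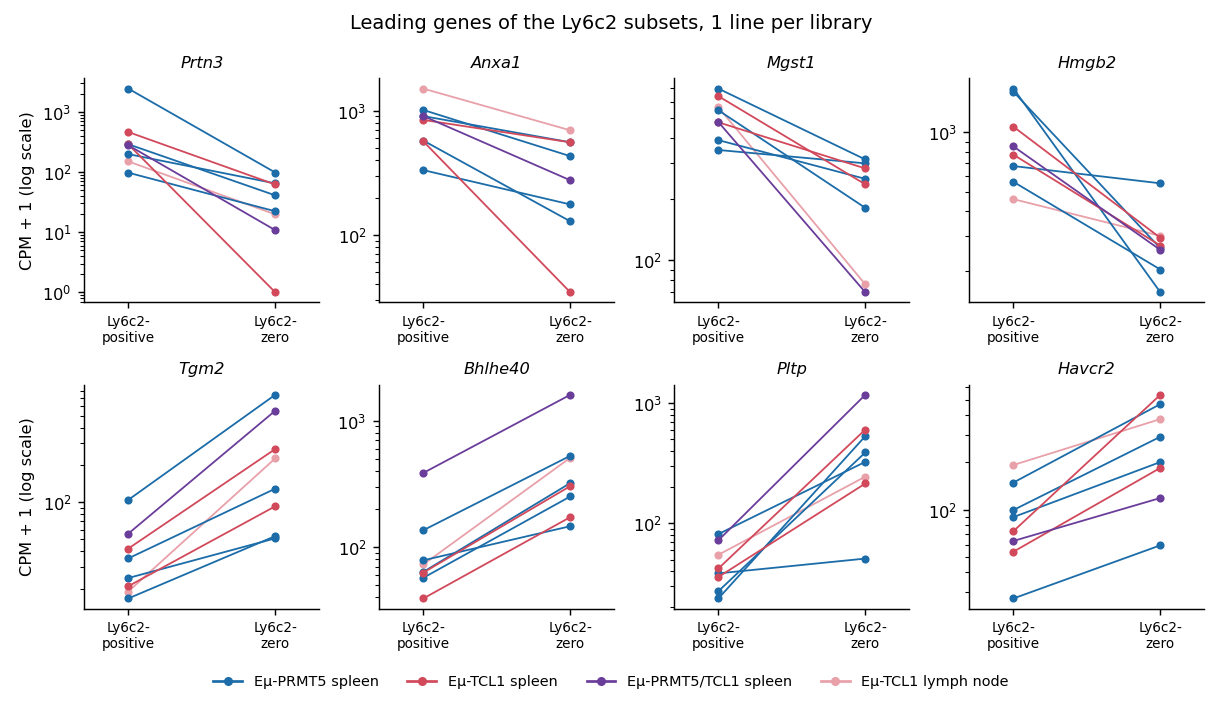
CPM + 1 on a log axis of 8 leading genes in the Ly6c2-positive and Ly6c2-zero subsets of the 8 libraries with at least 10 members in both, 1 line per library, coloured by group. Prtn3, Anxa1, Mgst1 and Hmgb2 slope down and Tgm2, Bhlhe40, Pltp and Havcr2 slope up in every library, as the choice of leading genes required.

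Among lists of related genes, the non-classical genes were on 1 side. All 6 of the 14 listed non-classical genes that passed the filter were lower in Ly6c2-positive cells (Pou2f2, Spn, Itgal, Nr4a1, Cx3cr1 and Klf2), with a list median of -1.11 beside 0.01 over all genes tested. Not all of these are particular to monocytes, since at 1500 UMIs Nr4a1, Itgal and Spn were detected in 20.2%, 7.78% and 5.90% of B cells. Cx3cr1 was detected in 0.0113% of B cells. Nr4a1 ranged from 67.2 over 126 to 764 CPM in the positive and from 134 over 355 to 2529 CPM in the zero subsets (-1.43 ± 0.25, adjusted p = 0.00233, lower in 8 of 8 libraries). Only Spn (CD43, a sialomucin) was called among members without progenitor transcripts, and 1 of the 6 passed the filter in thinned counts and was not called. Of 14 classical genes 3 were higher, among them Mgst1 and Hp (haptoglobin), with a list median of 0.77. Over all genes tested 2.63% were higher and 4.63% lower.

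MHC class I genes were lower in Ly6c2-positive cells for 3 of 9 tested, namely H2-K1 (-0.86 ± 0.15), H2-D1 (-0.59 ± 0.12) and B2m (-0.57 ± 0.13). H2-K1 and H2-D1 encode heavy chains, each of which pairs with the B2m chain to present antigen. The same 3 were called in thinned counts and without progenitor transcripts. Of 7 MHC class II genes tested, Ctss (cathepsin S, which trims the invariant chain) was lower at -0.51, and the list median was -2.46. Of the class II genes also tested in those fits, 5 of 5 were lower in thinned counts, where 9.22% of all genes were, and 0 of 7 without progenitor transcripts, where 1.87% were. H2-Aa, the class II alpha chain, ranged from 17.9 over 468 to 1907 CPM in the positive and from 0 over 3078 to 7370 CPM in the zero subsets, lower in the positive subset of 7 of 8 libraries, and was not called (-2.79 ± 0.99, adjusted p = 0.148 in edgeR). At 1500 UMIs H2-Aa was detected in 48.7% of Ly6c2-positive and 40.9% of Ly6c2-zero members pooled over all libraries, the opposite order, whereas within these 8 libraries its share was lower in the positive subset of 7. It was also detected in 91.5% of B cells. Glycolytic enzymes were higher for 4 of 9 (Gapdh 0.46, Pgk1 0.67, Pkm 0.57, Pgam1 0.57). In this main fit 2.63% of all genes were higher and 4.63% lower. Of 4 inflammatory cytokine and NF-kB genes tested 2 were lower and 0 higher, namely the NF-kB regulators Nfkbiz (-1.53 ± 0.25) and Nfkbia (-0.74 ± 0.15), with a list median of -1.28. Also lower were the immediate early genes Ier2, Junb and Btg2 (3 of 11). Of 8 type I interferon genes tested 0 were called, with a list median of 0.04.

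Between LN and spleen monocytes of the same animal, genes of the cell cycle list differed. In 4 mice (1 Eµ-TCL1, 3 Eµ-PRMT5/TCL1) with at least 10 members in both tissues, 139 of 3712 genes were called with mouse as a block (percent called 3.74), 73 higher (1.97) and 66 lower (1.78) in LN. Of the 12 cell cycle genes tested 6 were lower in LN monocytes (Top2a, Ccna2, Birc5, Ccnb2, Mki67 and Cdk1) and 0 higher, with a list median of -2.18 beside -0.01 over all genes tested. DESeq2 called 74 genes, of which 63 were among the 139. The libraries behind these values held 10 to 42 members in LN and 20 to 319 in spleen. Summed members held 258964, 76488, 84191 and 271586 UMIs in Eµ-TCL1 LN 3 and Eµ-PRMT5/TCL1 LN 2, 4 and 3. The spleens of the same mice held 892615, 179532, 5170509 and 1449316, so low CPM values in LN rest on few UMIs. Median UMIs per member were lower in LN of each mouse (6493.5, 7641.5, 5474.5 and 7794 against 6743, 8872.5, 14857 and 15398). The part of this was not tested.

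Top2a, the topoisomerase that untangles chromosomes in mitosis, was at 4.24, 0, 67.0 and 28.3 CPM in Eµ-TCL1 LN 3 and Eµ-PRMT5/TCL1 LN 2, 4 and 3, and at 152, 113, 339 and 231 CPM in the spleens of the same mice. Every LN value lay under every spleen value (-3.28 ± 0.35, adjusted p = 6.31e-05). Ccna2 (cyclin A2) was at 4.24, 28.2, 53.6 and 8.08 CPM in LN and at 85.4, 101, 169 and 165 CPM in spleen (-3.10 ± 0.41, adjusted p = 0.000209). Ube2c, the ubiquitin-conjugating enzyme of mitotic exit, was at 8.48, 0, 40.2 and 92.9 CPM against 147, 202, 345 and 332 CPM (-2.64 ± 0.34, adjusted p = 0.000385). Other division genes among the 10 leading lower genes were H2afx, Prc1, Tubb5, Cdca8, Cenpa, Cks1b and Racgap1, at log2 fold changes of -5.59 (Prc1, of the mitotic spindle midzone) to -1.17 (Tubb5, a tubulin). Prc1 was at 0 in 3 of 4 LN, so its fitted fold change depends on the prior count.

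The lower level of division genes was accompanied by a lower level of progenitor genes, since Prtn3 was at 110.2, 239, 536 and 230.3 CPM in LN and 348, 505, 852 and 1102 CPM in spleen (-1.49 ± 0.23, adjusted p = 0.0019). The summed CPM of the 7 progenitor genes was 150.6, 405.3, 688.9 and 239.3 in these LN and 444.8, 618.3, 991.0 and 1356 in the spleens, lower in LN of all 4 mice, and its part in the difference was not tested. Without members that carried a progenitor transcript 3 mice remained, since Eµ-PRMT5/TCL1 LN 2 kept 8 members, and 51 of 4333 genes were called (percent called 1.18, 0.438 higher and 0.739 lower) where all members of the same 3 mice gave 239. Of the 139, 37 were among the 51. Among these cells 5 of the 11 cell cycle genes tested in both fits were lower, Top2a at -3.18 (adjusted p = 0.005).

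Late cell cycle promoters are known to carry a cell cycle genes homology region (CHR), the hexamer TTTGAA, to which the DREAM and B-MYB complexes bind, often beside CCAAT boxes. The hexamer on either strand was found in 5 of 12 promoter windows of the cell cycle list (12 of 14 genes matched to RefSeq windows, GRCm38.p6, from 250 bases before to 50 after the start). It was present in 24 of 58 windows (41.4%) of genes lower in LN (50 of 66 genes matched), in 4 of 74 (5.41%) of genes higher in LN (57 of 73 matched), in 452 of 3750 (12.1%) of all genes tested and in 5878 of 32851 (17.9%) of all windows. CCAAT on either strand was found in 63.8%, 33.8%, 36.8% and 37.4% of these windows in the same order. A match is a description of the sequence and not a binding site.
The stretches below, from 4 genes of the cell cycle list that were lower in LN, are shown because they hold the hexamer (capitals), written 5′ to 3′ on the strand of the gene:
Top2a (chr11:99024351-99024380, minus strand): ctattggtccatTTTGAAgattctcccgcc
Ccnb2 (chr9:70421704-70421733, minus strand): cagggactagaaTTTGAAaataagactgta
Mki67 (chr7:135716478-135716507, minus strand): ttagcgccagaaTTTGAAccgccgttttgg
Cdk1 (chr10:69352966-69352995, minus strand): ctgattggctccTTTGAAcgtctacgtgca

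The genes higher in LN monocytes were led by Jund, Ly6i and Saa3. Jund (a member of the AP-1 transcription factor) was at 322.1, 211, 161 and 412 CPM in LN, in the order of mice given for Top2a, and at 98.6, 71.2, 45.8 and 58.0 CPM in spleen, with no overlap (2.10 ± 0.23, adjusted p = 6.31e-05). Ly6i, a Ly6 family antigen of inflammatory monocytes, was at 38.1, 578, 295 and 347 CPM against 9.62, 148, 116 and 79.9 CPM (1.85 ± 0.21, adjusted p = 6.31e-05). The Eµ-TCL1 mouse was far under the Eµ-PRMT5/TCL1 mice in both tissues, so the groups overlapped although LN was higher in 4 of 4 mice. Saa3 (serum amyloid A3) was at 492, 225, 509 and 655 CPM against 205, 35.6, 182 and 239.6 CPM (1.49 ± 0.18, adjusted p = 7.85e-05). Plbd1, a lysosomal phospholipase, was at 470.4, 831, 402 and 501 CPM against 243, 297, 154 and 172 CPM, without overlap (1.33 ± 0.16, adjusted p = 8.15e-05).

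The further leading genes of this direction were Rgcc (a cell cycle regulator, 1.74), Ppp1r15a (the GADD34 stress phosphatase subunit, 1.39), Bcl2l11 (the pro-apoptotic protein BIM, 1.23), AW112010 (0.99), Mt1 (metallothionein 1, 0.95) and Plaur (the urokinase receptor, 0.88). Each was higher in 4 of 4 mice, as the choice of leading genes required. Bcl2l11 was at 161, 197, 201 and 189.9 CPM in LN and 83.0, 89.0, 76.1 and 71.6 CPM in spleen, with no overlap. Among members without progenitor transcripts all but Saa3 (adjusted p = 0.0539) and AW112010 (adjusted p = 0.451) of the 10 leading genes were called.

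**Figure D4:**
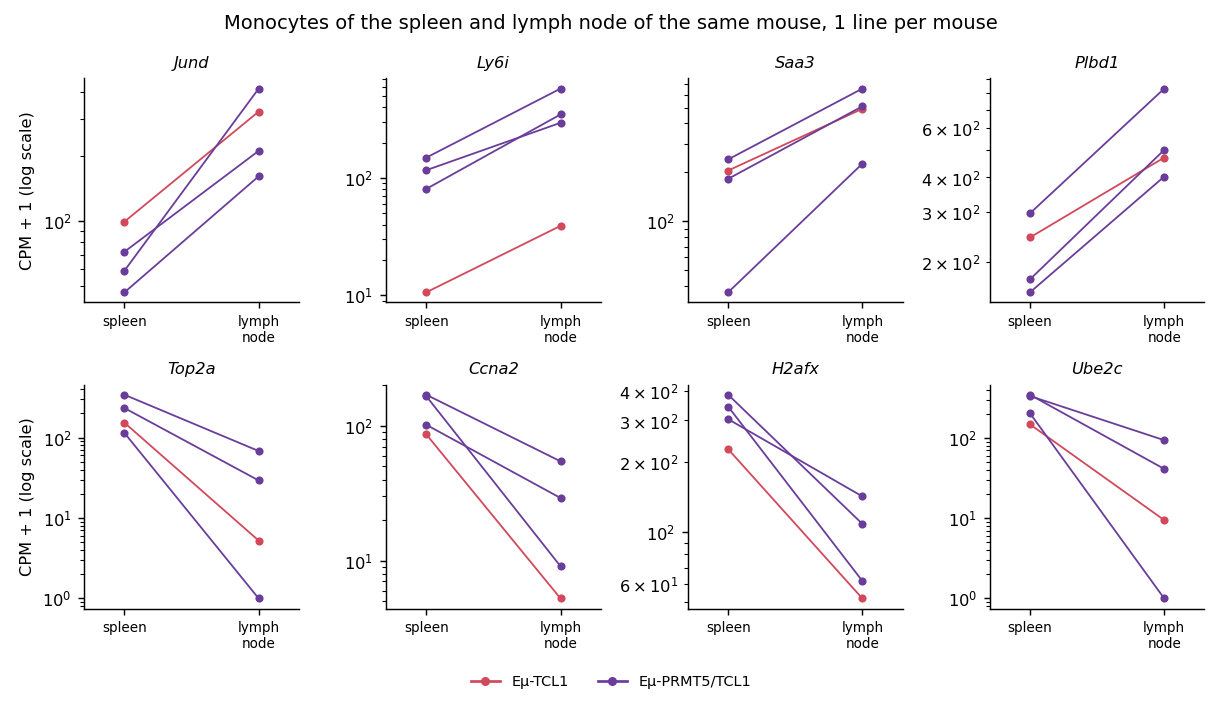
CPM + 1 on a log axis in monocytes of the spleen and LN of the same mouse, 1 line per mouse, coloured by genotype. Jund, Ly6i, Saa3 and Plbd1 slope up and Top2a, Ccna2, H2afx and Ube2c slope down in all 4 mice, as the choice of leading genes required.

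By lists, 3 of 11 immediate early genes were higher in LN (Jund, Atf3 at 1.06 and Zfp36 at 0.54), 3 of 13 type I interferon genes (Isg15 at 1.3, Oasl2 at 1.46 and Zbp1 at 0.88) and 3 of 7 MHC class II genes (Ctss at 0.51, H2-Ab1 at 1.13 and H2-DMb1 at 0.90). The medians of these lists were 0.40, 0.29 and 1.13, and over all genes tested 1.97% were higher and 1.78% lower. H2-Ab1, a chain of the class II molecule, was at 691, 2071, 2224 and 1834 CPM in LN and 189, 730.2, 1834 and 889 CPM in spleen, higher in 4 of 4 mice with overlapping groups. Among members without progenitor transcripts 1 of 13 interferon genes and 0 of 7 class II genes were called, where 1.18% of all genes were. Of 14 classical genes 1 was lower and 0 higher, with a list median of -0.28 and 4 positive. The called gene was Vcan (221 ± 148 against 513 ± 313 CPM, -1.14, adjusted p = 0.0016), and S100a4, of the same list, was at 0.31 (adjusted p = 0.307). Cebpd, a C/EBP transcription factor, was also lower (-1.02, adjusted p = 0.0158). Of 7 non-classical genes 0 were called, with a median of 0.10, and Ly6c2 itself was at -0.43 (adjusted p = 0.0509). The counts rested on single mice, with 35 calls without the Eµ-TCL1 mouse, 41 without the mouse of Eµ-PRMT5/TCL1 LN 3 and 239 without that of LN 2, and 23 of the 139 were called whichever mouse was left out.

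Between genotypes, no gene of spleen monocytes passed the threshold. In 7503 genes tested over 13 spleens, edgeR called 0 (percent called 0) in Eµ-PRMT5 against Eµ-TCL1, Eµ-PRMT5/TCL1 against Eµ-TCL1 and Eµ-PRMT5/TCL1 against Eµ-PRMT5, where 254, 140 and 276 genes had an unadjusted p under 0.05, and 0 were called by DESeq2. With the Xist level as a covariate the counts were also 0. In data simulated at the depth and spread of the last contrast, edgeR recovered 11.5% of genes changed 2-fold and 82.8% of genes changed 4-fold, so in that contrast most changes of 2-fold would not have been called. The values below are of the genes of smallest p and of fixed lists, and none was called. Of all genes tested 94 (1.25%), 149 (1.99%) and 91 (1.21%) did not overlap between the groups, in the same order of contrasts. A gene picked for a small p is also picked for separation of the groups.

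In Eµ-PRMT5 against Eµ-TCL1 spleens the smallest p belonged to Atf3, a stress-induced transcription factor. It was at 92.3, 476, 162, 309 and 542 CPM in Eµ-PRMT5 spleens 1 to 5 and at 70.4, 34.6, 88.0 and 82.5 CPM in Eµ-TCL1 spleens 1 to 4, with no overlap (2.09 ± 0.48, adjusted p = 0.999 in edgeR). Runx3 (61.9 ± 28.7 against 22.8 ± 2.05 CPM, 1.33) and Gabarapl1, an autophagy protein (55.9 ± 16.1 against 27.1 ± 3.98 CPM, 0.97), followed. The median of the 14 non-classical genes was 0.79 with 13 positive, of 10 heat shock genes 0.55 with 10 positive, of 12 immediate early genes 0.71 with 11 positive and of 14 cell cycle genes -0.82 with 0 positive, beside 0.02 over all genes. The summed CPM of progenitor genes had a median of 182 in Eµ-PRMT5, 796 in Eµ-TCL1 and 805 in Eµ-PRMT5/TCL1 spleens, and its part in the cell cycle medians of this contrast and of Eµ-PRMT5/TCL1 against Eµ-PRMT5 was not tested. Hspa1a, the inducible heat shock protein 70, was at 35.3, 554, 5.6, 72.0 and 793 CPM in Eµ-PRMT5 spleens 1 to 5, so its high values came from spleens 2 and 5. Atf3 was also highest in the same spleens. They had 81.6% and 84.1% of their UMIs in cells, the lowest of all spleens, and the part of this was not tested. The counts of positive genes are over genes of the same libraries and carry no test.

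Where the double transgenic spleens were set against Eµ-TCL1, Ms4a4c, a membrane-spanning protein of monocytes, was at 201, 252, 214 and 365 CPM in Eµ-PRMT5/TCL1 spleens 1 to 4 and at 136, 152, 168 and 94.9 CPM in Eµ-TCL1 spleens 1 to 4, with no overlap (0.92 ± 0.26, adjusted p = 1 in edgeR). Dynll1, a dynein light chain, was at 214 ± 103 against 518 ± 142 CPM (-1.27 ± 0.38). Oas1a, an interferon-induced sensor of double-stranded RNA, was at 109 ± 59.4 against 41.7 ± 23.4 CPM (1.32 ± 0.41). The median of 8 MHC class II genes was 0.92 with 8 positive and of 23 type I interferon genes 0.30 with 18 positive, beside -0.02 over all genes.

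In Eµ-PRMT5/TCL1 against Eµ-PRMT5 spleens, which share the double transgenic spleens with the contrast before, Ccng2 (cyclin G2, associated with cell cycle exit) was at 101, 90.7, 76.2 and 97.0 CPM in Eµ-PRMT5/TCL1 spleens 1 to 4. In Eµ-PRMT5 spleens 1 to 5 it was at 39.0, 27.3, 44.8, 43.4 and 46.7 CPM, with no overlap (1.16 ± 0.25, adjusted p = 0.734 in edgeR). Oas1a followed, at 89.4, 62.6, 88.3 and 196 CPM against 35.3, 31.2, 42.0, 44.7 and 35.0 CPM without overlap (1.52 ± 0.40, adjusted p = 1 in edgeR). The median of 23 type I interferon genes was 0.80 with 21 positive and of 14 cell cycle genes 0.88 with 14 positive, beside -0.05 over all genes. The mean Ly6c2 share was also higher in Eµ-PRMT5/TCL1 than in Eµ-PRMT5 spleens, although, as given above, this did not pass the test. The part of the Ly6c2 share in these medians was not tested.

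**Figure D5:**
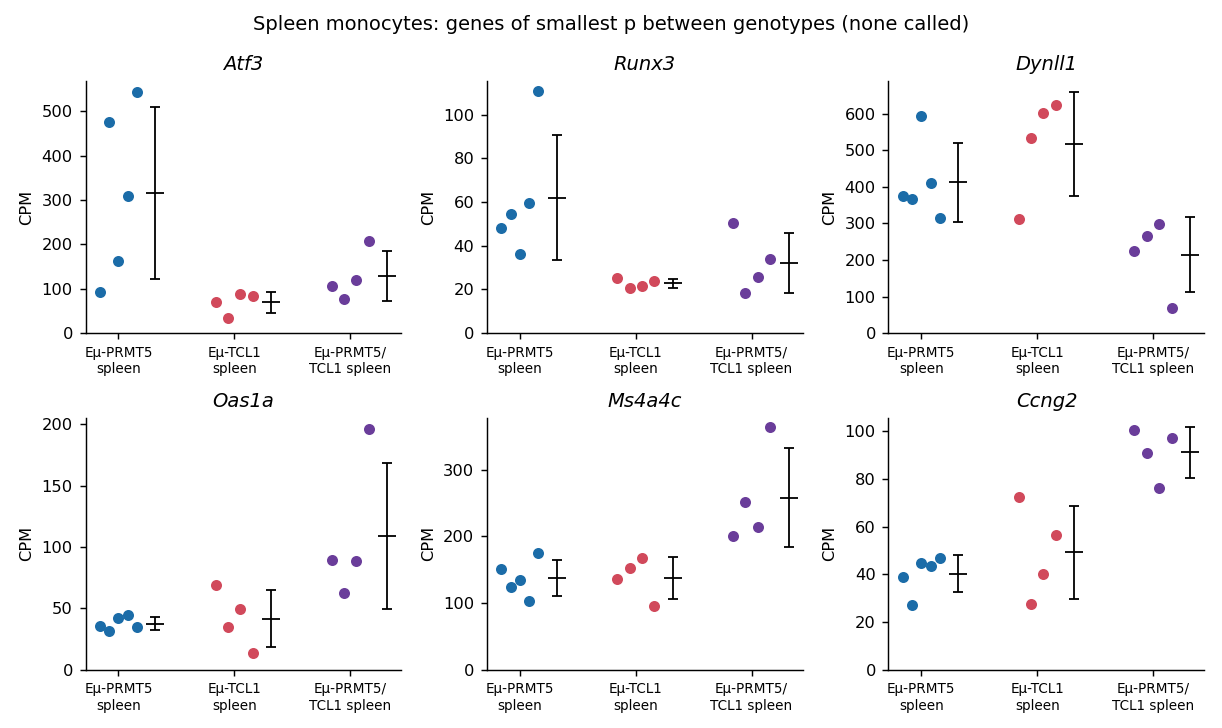
CPM of 6 genes of smallest p in spleen monocytes of the 3 genotypes (points are libraries, bars the mean ± SD). Atf3 and Runx3 lie higher in Eµ-PRMT5 than in Eµ-TCL1 spleens, Dynll1 lower in Eµ-PRMT5/TCL1 spleens, and Oas1a, Ms4a4c and Ccng2 higher there than in Eµ-PRMT5 spleens, with 0 genes called.

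Within the subsets the result was alike for Ly6c2-positive cells, in which 0 of 7019 genes (percent called 0) were called in each contrast by edgeR and by DESeq2, with 201, 129 and 224 genes at an unadjusted p below 0.05 in the same order of contrasts. Ly6c2-zero cells could be summed in 1 double transgenic spleen, beside 4 of Eµ-PRMT5 and 2 of Eµ-TCL1, and this lone library was assumed to vary like the others. In both contrasts with the double transgenic group, genotype and this 1 animal therefore cannot be told apart. Of 3493 genes edgeR called 0 in Eµ-PRMT5 against Eµ-TCL1 (percent called 0, DESeq2 0, 86 at an unadjusted p below 0.05) and 0 in Eµ-PRMT5/TCL1 against Eµ-TCL1 (percent called 0, DESeq2 53, 400 unadjusted). It called 1 in Eµ-PRMT5/TCL1 against Eµ-PRMT5 (percent called 0.0286, DESeq2 90, 495 unadjusted), the immunoglobulin segment Igkv1-117, a B cell transcript that was at 738 CPM there and at 0 in the 4 Eµ-PRMT5 libraries. Eµ-PRMT5/TCL1 spleen 4, that library, had B cell genes at 270.2 CPM, against 83.6, 95.5 and 91.8 CPM in the other spleens of its group. Genes of LN monocytes were not compared between genotypes, because 1 Eµ-TCL1 LN had at least 10 members.

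The cells most like these monocytes were 158 that passed every step of the gate but had at least 3 UMIs of C1qa, C1qb and C1qc, the complement components that tissue macrophages make. In the 3 spleens with at least 10 of both (Eµ-PRMT5 spleen 4, Eµ-TCL1 spleen 1 and Eµ-PRMT5/TCL1 spleen 2, which held 88, 20 and 18 of the 158), monocytes differed from them in 598 of 6485 genes (percent called 9.22), 283 higher (4.36) and 315 lower (4.86). Monocytes had more UMIs there (medians 9250, 14978 and 14857 against 7084, 10714.5 and 11551), and the part of this was not tested. Of all genes tested 2812 (43.4%) lay on 1 side in all 3 libraries, 591 of them called, and leading genes were picked from these. Class II presentation was lower in monocytes for 8 of 8 genes tested, with a median of -1.19 beside -0.0013 over all genes. H2-Aa was at 1807, 1434 and 2187 CPM in monocytes and 4663, 3781 and 4871 CPM in C1q-positive cells, with no overlap (-1.31 ± 0.11, adjusted p = 1.09e-06). Saa3 was at 1396, 73.3 and 160.2 CPM against 6898, 787 and 1006 CPM, lower in all 3 libraries (-2.74 ± 0.18, adjusted p = 4.74e-06). Its level was highest in Eµ-PRMT5 spleen 4 in both classes, where library, animal and genotype cannot be told apart.

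Further genes lower in monocytes were Fcgr4 (an activating Fc receptor, -1.66 ± 0.19), Il1b (-2.09 ± 0.31), Pla2g7 (-1.57), Cxcl16 (-1.88), 9 of 24 type I interferon genes (Isg15 at -1.50) and 6 of 16 lysosomal genes (Ctsb at -0.96). Genes higher in monocytes included Elane at 576, 319 and 128 CPM against 57.0, 38.9 and 41.9 CPM (2.92 ± 0.25, adjusted p = 2.17e-06) and Rrm2, a subunit of ribonucleotide reductase, at 125, 132 and 109 CPM against 11.7, 13 and 21 CPM (3.09 ± 0.30, adjusted p = 5.48e-06). Of 14 cell cycle genes 10 were higher. Over all genes tested 4.36% were higher and 4.86% lower. Without cells that carried a progenitor transcript 50 of 4471 genes were called (percent called 1.12, 0.403 higher and 0.716 lower), of which 40 were among the 598, and H2-Eb1, H2-Aa, Cd74 and H2-Ab1 remained lower (H2-Aa at -0.69, adjusted p = 0.00704). Left without Eµ-PRMT5 spleen 4, which held most C1q-positive cells, the comparison called 308 genes, and 224 of the 598 were called whichever library was left out.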

How the data were processed

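Single-cell RNA was measured in 20 libraries from 13 mice with 10x 3′ chemistry. The deposited files held raw UMI counts of 31053 genes for all barcodes. The authors aligned to GRCm38; the submitters' processing notes name Cell Ranger 2.0.1 and Seurat 2.2.1, and the matrix headers name Cell Ranger 3.1.0. Groups came from the labels, and the libraries held 9348094 to 72440894 UMIs. Members and gene lists (31 lists, 328 genes) were chosen with earlier results of these data known.

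Cells were gated on counts, counts of members were summed per library (at least 10 members), and genes were tested with edgeR 4.0.16 (quasi-likelihood, R 4.3.3) with Benjamini-Hochberg adjustment at 0.05. The 13 spleens shared 1 fit without a block, LN and spleen were fitted with mouse as a block, and subsets and C1q classes with library as a block. DESeq2 1.42.0 was an alternative. Shares were compared by exact permutation (SciPy 1.17.1). For comparisons of shares of cells with a UMI each cell was thinned to 1500 UMIs, and B cells (at least 3 UMIs of Cd79a and Cd79b, at least 1 of Ms4a1, no Cd3 or Lyz2, up to 500 per library) gave the background. Scrublet (scanpy 1.11.5) marked the top scores at an expected 0.8% per 1000 cells, because its automatic threshold marked almost none in most libraries; marked cells were kept, and left out as an alternative.

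Named genes were, per direction, the 10 called genes of smallest p with a mean of at least 50 CPM in the higher group and groups (or pairs) on 1 side, leaving out genes of the gate, immunoglobulin, T cell receptor, haemoglobin, sex-linked and predicted genes, plus list members of smallest p, and 3 genes of smallest p where a comparison called none; Igkv1-117, Hspa1a and Cxcl16 in the text fall outside it or were chosen after their values were seen. Samples of a group were separate animals by label. Same-numbered spleens of different genotypes were different mice and were not paired. Scripts were tested on simulated data. Some genes that met the rule are not reported here.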

Additional observations from a re-analysis of the deposited data

Results flagged for a closer look

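Of 64 groups of libraries tested for a sample far from the others, 8 held one, where chance gives about 1 in 20. The summed CPM of progenitor genes was 2810 in Eµ-PRMT5 spleen 4, where the remaining 4 of that genotype had 37.9 to 222.4. B cell genes summed to 270.2 CPM in Eµ-PRMT5/TCL1 spleen 4, the library that alone represented its group among Ly6c2-zero spleen cells. Plasma cell genes were at 485.7 CPM and erythroid genes at 15.93 CPM in Eµ-PRMT5 spleen 2, T cell genes at 64.98 CPM in Eµ-PRMT5 spleen 5, plasmacytoid dendritic genes at 35.09 CPM in Eµ-TCL1 spleen 2 and platelet genes at 1.205 CPM in Eµ-PRMT5 spleen 1, each the highest of its group. Macrophage genes were at 213.9 CPM in Eµ-PRMT5/TCL1 spleen 3, the lowest of its group.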

How the results depend on the processing

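Of the alternatives to the main comparisons, 246 kept the direction and side of the threshold, or a count within 1.5 times, 28 moved a count further than that and 14 reversed a difference. The difference in monocyte share changed sign for Eµ-PRMT5 against Eµ-TCL1 spleens over cells that were not B cells (-0.796) and when single libraries were left out (-0.299 to 0.433), for Eµ-PRMT5/TCL1 against Eµ-TCL1 spleens (-0.129 to 2.62) and against Eµ-PRMT5 spleens (-0.241 to 2.51) with a library left out, and for LN between genotypes over non-B cells (-0.216), with the gate applied to thinned counts (-0.00186, added after seeing the data) and with a library left out (-0.155 to 0.270). The Ly6c2 share of LN against spleen was -3.36 in unthinned counts and -1.33 to 3.86 with a mouse left out. The cause was not tested.

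Counts of genes moved as follows. Ly6c2-zero cells gave 0 to 1 calls for Eµ-PRMT5 against Eµ-TCL1 with a library left out, 53 by DESeq2 for Eµ-PRMT5/TCL1 against Eµ-TCL1, and 90 by DESeq2 or 0 to 122 with a library left out for Eµ-PRMT5/TCL1 against Eµ-PRMT5. LN against spleen gave 74 by DESeq2, 35 to 239 with a mouse left out, 289 without a filter, 359 with at least 20 members (2 mice), 226 with S100a8 and S100a9 below 5, 281 without shared barcodes, 51 without progenitor transcripts and 210 in Ly6c2-positive cells (the last 3 added after seeing the data). The last 4 settings also lost the mouse of Eµ-PRMT5/TCL1 LN 2, without which all members gave 239. The subsets gave 108 to 230 with a library left out, 71 thinned (12 libraries), 119 with the S100 limit (7 libraries), 96 without shared barcodes (6 libraries) and 59 without progenitor transcripts. The C1q comparison gave 255 by DESeq2, 308 to 864 with a library left out and 50 without progenitor transcripts. With no replicate block these 3 comparisons gave 21, 25 and 44 calls, and the LN share difference had p = 0.0105 in the exact permutation without pairing. Replicate number as a block in the 3 spleen contrasts gave 0 calls each, and deviations of same-numbered spleens correlated at -0.31 to 0.20, so the numbers do not pair them. In data simulated for Eµ-PRMT5/TCL1 against Eµ-PRMT5 spleens, 11.5% of 2-fold changes were recovered.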

Other observations

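Elane transcripts were unevenly spread over spleens of each genotype. In unthinned counts 3.7%, 0%, 9.09%, 51.8% and 0% of members had an Elane UMI in Eµ-PRMT5 spleens 1 to 5. In Eµ-TCL1 spleens 1 to 4 the share was 57.8%, 4.00%, 38.2% and 10.7%, and in Eµ-PRMT5/TCL1 spleens 1 to 4 it was 20%, 31.3%, 46.8% and 10.2%. The share was 4.76% in Eµ-TCL1 LN 3 and 10.0%, 11.8% and 7.14% in Eµ-PRMT5/TCL1 LN 2 to 4. At 1500 UMIs per cell the spread remained, at 0% to 28.9% in Eµ-PRMT5, 2.48% to 25.5% in Eµ-TCL1 and 2.34% to 17.7% in Eµ-PRMT5/TCL1 spleens.

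Of 13 genes by which myeloid cells support or restrain B and T cells, 2 of 6 tested were lower in Ly6c2-positive cells (percent lower over all genes 4.63) and 1 of 7 was higher in LN (percent higher 1.97). In monocytes against C1q-positive cells 2 of 8 were lower (percent lower 4.86), and 0 of 8 were called in each spleen contrast. Tgfb1 (-0.76 ± 0.17) and the chemokine Cxcl16 (-1.71 ± 0.35) were lower in Ly6c2-positive than in Ly6c2-zero cells, with adjusted p of 0.00677 and 0.0113 in edgeR. Lgals9 (galectin 9, a TIM-3 ligand) was higher in LN than in spleen (1.07 ± 0.24, adjusted p = 0.0149). Cxcl16 (-1.88 ± 0.20) and Cd274 (the checkpoint ligand PD-L1, -1.22 ± 0.24) were lower in monocytes than in C1q-positive cells (adjusted p = 1.78e-05 and 0.00353 in edgeR).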
